A study of Homo sapiens with 18 samples.

Results

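The data described here compare the knockdowns of a pair of Notch receptors in the presence of a drug, with Notch3 siRNA (N3) and erlotinib on one side and Notch1 siRNA (N1) and erlotinib on the other. The arrays were chosen by their labels alone and number 6 of the 18 in the series, 3 for each siRNA. All 16314 genes with a level above noise on at least 3 of the 18 arrays were compared. They come from 22411 genes that a feature of the array names alone. A gene could thus pass on the arrays of 1 group and lie below noise on others. The cells were HCC4006, an established lung adenocarcinoma line with a mutant EGFR, and every group was a transfected culture of that 1 line. N3 and N1 cells with erlotinib received the EGFR inhibitor at 0.1 µM, for 5 days by the labels and 6 by the study's text. The other arrays hold N3 and N1 cells with the vehicle DMSO and non-targeting control siRNA (NTC) cells with erlotinib or DMSO, at 3 arrays a group. Some labels call the siRNA groups knockouts, but the titles and the methods give transient siRNA transfection, with a single duplex for each receptor. Nothing in the labels says that the 3 arrays of a group came from separate cultures, so p-values measure only the spread between these arrays.

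Notch receptors are membrane proteins that are cleaved when a ligand of the Delta-like or Jagged family on a neighbouring cell binds them. The freed intracellular part enters the nucleus and, with RBPJ and Mastermind proteins, turns on targets such as the HES and HEY repressors. Notch1 and Notch3 share this route but differ in how strongly they activate it and in the cells that express them. Erlotinib blocks the EGFR kinase on which EGFR mutant cells depend for growth, and the cells that outlast it are called drug-persistent. The comparison of both knockdowns in erlotinib asks which transcripts part company when one receptor or the other is lost from such cells.

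Levels are the deposited log2 values, on which a difference of 1 is a fold of 2, and every difference is N3 minus N1 unless another pair is named. A gene was called at an adjusted p under 0.05 (limma over all 18 arrays, Benjamini-Hochberg over all 16314 genes), or by the thresholds of the study's Methods, an unadjusted p under 5e-04 with a fold of at least 2. By adjusted p, 2251 genes (13.8%) were higher and 3406 (20.9%) lower with N3 than with N1 in erlotinib, 34.7% of genes in all. These shares are the background for every count of list members in erlotinib below. By the Methods thresholds 22 genes (0.135%) were higher and 31 (0.190%) lower. The 3 N3 arrays all stood above the 3 N1 arrays for 17.4% of genes and below them for 28.8%. The median over all genes was -0.05. The arrays correlated at 0.996 within N3 and at 0.995 to 0.996 within N1, and at 0.989 to 0.995 between the groups. The arrays of N3 in erlotinib are numbered 4 to 6 in the labels and those of every other group 1 to 3, so a difference in handling between those sets cannot be told apart from the siRNA. All 9 epithelial markers measured were above the noise filter, at a mean level of 9.16 to 9.27 on the N3 arrays and 9.48 to 9.50 on the N1 arrays. Markers of fibroblasts, leukocytes and endothelium averaged 4.52 to 5.04 on these 6 arrays, with 4 genes of each list above the filter. RNA of whole cultures was measured, so fewer cells of a kind and less RNA per cell cannot be told apart.

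In erlotinib the Notch3 transcript was lower with its own siRNA, and the Notch1 transcript gave no call. NOTCH3 lay at 6.49, 6.27 and 6.44 on the N3 arrays and at 7.28, 7.26 and 7.12 on the N1 arrays in erlotinib. The groups did not overlap, and the NTC arrays in erlotinib lay between them at 6.95, 7.04 and 6.93. The difference was -0.82 (SE 0.06, adjusted p = 5.24e-08), and it was -0.46 in DMSO. NOTCH1 lay at 6.66, 6.60 and 6.63 with N3 and at 6.62, 6.59 and 6.54 with N1. Those arrays overlap, and the difference of 0.05 (SE 0.04, adjusted p = 0.426) did not pass. Against the NTC arrays in erlotinib, NOTCH1 with N1 siRNA differed by -0.08 (adjusted p = 0.214). In DMSO the N1 arrays were lower, at 6.63, 6.50 and 6.50 against 6.74, 6.70 and 6.78 with N3, and the difference of 0.20 passed (adjusted p = 0.00433). The arrays did not overlap there. The array therefore gives the loss of NOTCH3 in erlotinib but no call for the loss of NOTCH1, and the N1 arrays in erlotinib are taken as such from their labels.

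Of the 9 Notch receptors and ligands tested, 6 were lower with N3 and 0 higher, with a median of -0.25. The list holds both siRNA targets, and NOTCH3 is among the 6, with the lowest value of -0.82. Part of that count therefore follows from the design. JAG1, a ligand, lay at 7.62, 7.69 and 7.78 with N3 and at 8.0, 8.12 and 7.97 with N1. Its difference was -0.33 (SE 0.06, adjusted p = 0.00029), with a difference from NTC of -0.03 (adjusted p = 0.832) for N3 and of 0.31 (adjusted p = 0.00107) for N1. Both differences from NTC share the same NTC arrays, here and below. The ligands DLL4 and DLL1 differed by -0.27 and -0.25, and both passed. Among 17 genes of Notch processing and its nuclear cofactors 2 were higher and 3 lower, near the 13.8% and 20.9% of all genes. Without N1 array 1, N3 array 5 or N3 array 6, 1 was higher. The called genes include both APH1 subunits of gamma-secretase, the protease that releases the intracellular part: APH1A differed by -0.23 and APH1B by 0.18. FURIN, which cleaves the receptor on its way to the surface, differed by -0.33.

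Among 11 Notch target genes HES1 and HEYL were lower, a share near the 20.9% of all genes, and 0 were higher. HES1, the best known direct target, lay at 6.77, 6.99 and 6.88 with N3 and at 7.44, 7.35 and 7.43 with N1. The NTC arrays, at 7.46, 7.26 and 7.28, overlapped those of N1 and stood above those of N3. The difference was -0.53 (SE 0.07, adjusted p = 1.44e-05). In DMSO it was -0.17 (adjusted p = 0.0964), and the 2 differences themselves differed by -0.36 (adjusted p = 0.00911). HEYL differed by -0.21 (SE 0.06, adjusted p = 0.0188), a call that was lost without N1 array 1, N1 array 2 or N3 array 4, leaving 1 target. After quantile normalization 5 targets were lower.

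**Figure D1:**
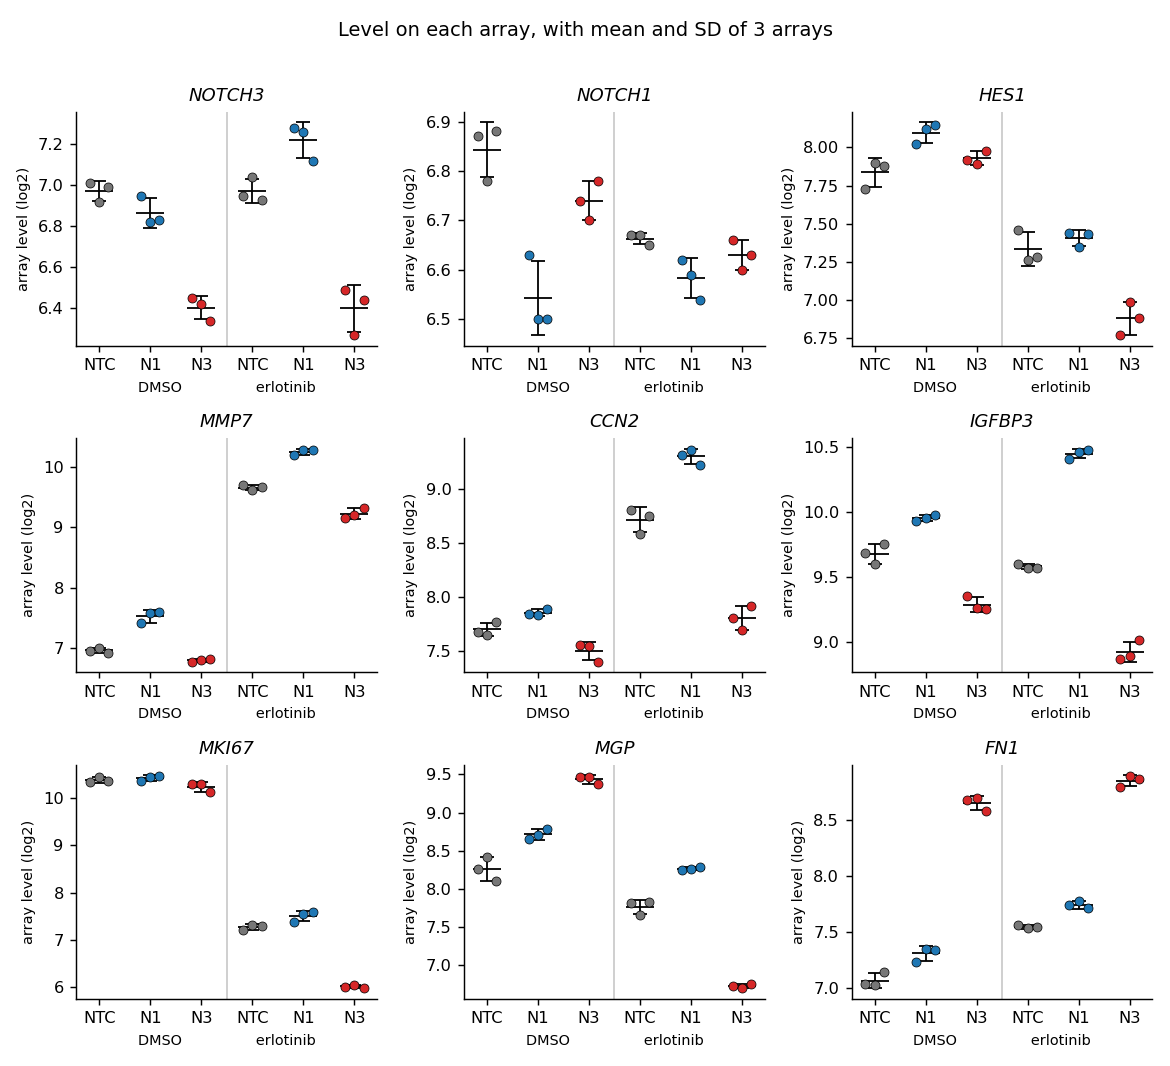
Level of 9 genes (log2, vertical axes, each on its own scale) on each of the 18 arrays, for NTC, N1 and N3 cells in DMSO (left of the line) and in erlotinib (right). Points are arrays, and bars give the mean and SD of 3. In erlotinib the N3 arrays stand below the N1 arrays for all genes drawn except NOTCH1, where they overlap, and FN1, where they stand above.

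The genes that set the 2 knockdowns furthest apart on the low side were of several kinds. RASGRP1, an exchange factor that activates RAS, lay at 7.52, 7.62 and 7.56 with N3 and at 9.08, 9.08 and 9.23 with N1, a difference of -1.56 (SE 0.08, adjusted p = 8.72e-10). Its difference in DMSO was of like size, at -1.40. MGP, a matrix protein that inhibits calcification, lay at 6.73, 6.70 and 6.75 with N3 and at 8.25, 8.26 and 8.29 with N1. Its difference of -1.54 (SE 0.07, adjusted p = 1.65e-10) stood against 0.72 in DMSO, where the N3 arrays, at 9.47, 9.46 and 9.37, were all above the N1 arrays. AASS, which begins lysine breakdown, differed by -1.22. Against NTC in erlotinib the AASS difference was -1.40 with N3 and -0.18 (adjusted p = 0.0827) with N1. ABI3BP, an extracellular protein that binds the SH3 domain of ABI3, lay at 5.55, 5.60 and 5.52 with N3 and at 6.82, 6.85 and 6.90 with N1. Most of its difference of -1.30 (SE 0.04, adjusted p = 7.75e-12) lay on the N1 side, where the difference from NTC was 1.15, against -0.15 for N3. TCIM and the antisense transcript HIF1A-AS2 differed by -1.17 and -1.16. The sources used here do not say whether the values of HIF1A-AS2 are free of signal from the opposite strand.

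Of the 31 genes lower by the Methods thresholds, 30 were protein coding and 8 were on the mitosis list. In DMSO 20 of the 31 were also called lower, against 7.48% of all genes.

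Genes of mitosis were lower with N3 nearly throughout. Of the 34 tested, 29 were lower with N3 than with N1 and 0 were higher, with a median of -0.75, against 20.9% lower among all genes. MKI67, the proliferation antigen Ki-67, lay at 6.01, 6.05 and 5.98 with N3, at 7.38, 7.55 and 7.58 with N1 and at 7.20, 7.32 and 7.29 with NTC. Its difference was -1.49 (SE 0.06, adjusted p = 8.22e-11). TOP2A, the topoisomerase that untangles chromosomes, lay at 5.40, 5.62 and 5.52 with N3 and at 6.74, 6.89 and 7.03 with N1, a difference of -1.37 (SE 0.07, adjusted p = 6.79e-10). The spindle protein HMMR differed by -1.21 and the cytokinesis kinesin KIF23 by -1.16, and for both the N3 arrays stood below every N1 and NTC array in erlotinib. CDKN3, a phosphatase that acts on cyclin-dependent kinases and is not on the mitosis list, differed by -1.34, and by -0.44 in DMSO. The members that did not pass were BUB1, SPC25, PTTG1, INCENP and ECT2. With 1 array left out at a time, 28 to 30 members were called.

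Without the drug the same genes differed less. In DMSO 11 of the 34 mitosis genes were lower and 0 higher, against 7.48% lower among all genes, with a median of -0.14. KIF23 was lower by -0.35 there, and MKI67 lay at 10.30, 10.29 and 10.12 with N3 against 10.36, 10.44 and 10.47 with N1. The difference between the 2 comparisons passed for 27 of the 34, all toward a lower value in erlotinib, with a median of -0.59. For MKI67 the difference between the comparisons was -1.30 (SE 0.08, adjusted p = 5.1e-08).

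Promoters of these genes often hold a CHR, the letters TTTGAA, which is bound by the DREAM and B-MYB complexes of the cell cycle, and a CCAAT box, bound by NF-Y. In RefSeq promoters of GRCh38.p14, each 300 bases long with 250 before and 50 after the start, TTTGAA on either strand was found in 9.67% of the 11741 promoters of tested genes. It was found in 22 of the 30 mitosis promoters (73.3%). CCAAT on either strand was in 35.8% of all and in 25 of the 30 (83.3%). The 25 mitosis genes called lower that have a promoter held TTTGAA in 19 and CCAAT in 20. A match is only a description of the letters. The promoter of MKI67 is shown because it is the member with the largest difference and holds TTTGAA at 2 places, which are in capitals, at 47 and 29 bases before the start (chr10:128126374-128126673, minus strand).
MKI67: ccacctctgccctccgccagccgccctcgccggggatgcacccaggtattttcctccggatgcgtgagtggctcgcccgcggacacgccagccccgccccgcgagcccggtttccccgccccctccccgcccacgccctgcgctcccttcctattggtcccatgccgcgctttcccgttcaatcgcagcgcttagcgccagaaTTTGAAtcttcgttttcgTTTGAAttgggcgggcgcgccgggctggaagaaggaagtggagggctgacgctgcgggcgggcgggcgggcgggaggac

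DNA replication genes moved less. Of 33 tested, 23 were lower and 1, the primase PRIM1, was higher, with a median of -0.22 and a median of 0.04 in DMSO. The PRIM1 call was lost when any array but N1 array 3 was left out. DTL, which marks the licensing factor CDT1 for destruction, lay at 6.00, 6.08 and 6.11 with N3 and at 7.04, 7.24 and 7.18 with N1, a difference of -1.09 (SE 0.05, adjusted p = 4.46e-10). CDC6 and MCM10, which load and start the replication machine, differed by -0.82 and -0.75. RRM2, the small subunit of ribonucleotide reductase, differed by -0.74 on the feature used and by -0.09 on its other feature, so its 2 features disagree in size. Of 20 clustered histone genes 8 were lower and 0 higher, with H4C3 at -0.77 and H2BC14 at -0.64, and 4 were called without N1 array 1. Probes of histone genes can read near-identical copies. Among 19 genes of cyclins, CDK inhibitors and RB proteins 2 were higher, or 1 without N1 array 1, and 8 lower. The lower ones were 5 without N1 array 1 or N3 array 6 and 4 without N1 array 2. CCNE2, cyclin E2, differed by -0.51, CDKN1A, the inhibitor p21, by -0.34, and RBL1, the RB relative p107, by 0.26.

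Genes that YAP and TAZ drive with TEAD factors were another low group. Of 22 tested 15 were lower with N3, and 1, the secreted protein FJX1, was higher at 0.37. The median was -0.24 in erlotinib and -0.30 in DMSO, where 17 were lower. CCN2, the matricellular growth factor also named CTGF, lay at 7.80, 7.69 and 7.91 with N3, at 9.31, 9.36 and 9.22 with N1 and at 8.80, 8.58 and 8.75 with NTC. Its difference was -1.50 (SE 0.07, adjusted p = 2.02e-10) in erlotinib and -0.36 in DMSO. IGFBP3, which binds insulin-like growth factors, lay at 8.87, 8.89 and 9.01 with N3 and at 10.41, 10.46 and 10.48 with N1, a difference of -1.53 (SE 0.05, adjusted p = 4.73e-12). For both genes N3 stood below NTC and N1 above it: by -0.91 and 0.59 for CCN2, and by -0.66 and 0.87 for IGFBP3. NT5E, the ectoenzyme CD73 that makes adenosine, lay at 7.04, 7.17 and 7.17 with N3 and at 8.45, 8.55 and 8.55 with N1. Its difference of -1.39 (SE 0.05, adjusted p = 7.49e-12) was 0.22 in DMSO, in the opposite direction. F3, tissue factor, differed by -1.09, and ANKRD1, a muscle-type repeat protein and a classic YAP target, by -0.63. The ANKRD1 difference was larger without the drug, at -1.54, where N3 arrays lay at 9.61, 9.50 and 9.47 and N1 arrays at 11.07, 11.08 and 11.05.

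Targets of beta-catenin, the transcription coactivator of Wnt signaling, did not go one way. Of 19 tested, 8 were lower, 2 higher and 9 did not pass, with a median of -0.13. MMP7, a matrix protease, lay at 9.15, 9.20 and 9.32 with N3, at 10.19, 10.28 and 10.27 with N1 and at 9.69, 9.62 and 9.66 with NTC. The 3 groups did not overlap. The difference was -1.02 (SE 0.05, adjusted p = 8.19e-10), made up of -0.43 for N3 and 0.59 for N1 against NTC. In DMSO it was -0.73. BAMBI, a decoy receptor of the TGF-β family, differed by -0.79, and DKK1, a secreted Wnt inhibitor, by -0.51. LGR5, the R-spondin receptor that marks intestinal stem cells, went the other way, at 9.88, 9.86 and 9.82 with N3 against 8.88, 8.94 and 9.04 with N1. Its difference was 0.90 (SE 0.11, adjusted p = 1.19e-05). The NTC arrays, at 9.88, 9.86 and 9.88, lay with those of N3, and in DMSO the sign was turned, at -0.88. PROM1, the stem cell marker CD133, was higher by 0.35.

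Of the 9 genes tested that the study names for its arrays, 7 were lower with N3 and 0 higher. The study picked them on these samples, so their direction is not independent evidence. Beside MMP7, ABI3BP, CCN2 and ANKRD1 they include GADD45B, a stress protein, at -0.93 (SE 0.08, adjusted p = 1.77e-07), the EGFR ligand HBEGF at -0.52 and the interferon-induced SAMD9L at -0.39. SAMD9L lay at 8.66, 8.79 and 8.72 with N3, at 9.06, 9.09 and 9.18 with N1 and at 8.17, 7.99 and 8.13 with NTC, so both knockdowns stood above NTC. GADD45A (-0.09, adjusted p = 0.236) and GADD45G (-0.12, adjusted p = 0.285) did not pass. The study's text gives GADD45 without naming a member, so GADD45A, GADD45B and GADD45G were all counted among the 9.

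Adhesion and matrix genes split. Of 20 TGF-β target genes 13 were lower and 1, FN1, was higher, with a median of -0.21. In DMSO 11 were lower and 1 higher, with a median of -0.23. FN1, fibronectin, lay at 8.80, 8.89 and 8.87 with N3 and at 7.74, 7.78 and 7.71 with N1, a difference of 1.11 (SE 0.05, adjusted p = 1.58e-10). It was 1.35 in DMSO, and the NTC arrays in erlotinib lay at 7.56, 7.53 and 7.54. The basement membrane collagens COL4A1 and COL4A2 differed by -0.79 and -0.54 in erlotinib and by -0.86 and -0.51 in DMSO. They are 2 of the 6 collagens of 17 called lower, a count that was 3 without N3 array 4. The 1 collagen called higher, COL1A2 at 0.16, was not called when any array but N1 array 2 was left out. PDGFB, a mesenchymal growth factor, differed by -0.58. Of 17 integrin subunits 8 were lower and 3 higher, the latter ITGA1, ITGB8 and ITGA6 at 0.24, 0.23 and 0.13, of which 1 was called without N1 array 1, N3 array 5 or N3 array 6. ITGB3, which pairs with αV to bind vitronectin, lay at 6.00, 5.90 and 5.85 with N3 and at 7.12, 7.14 and 7.10 with N1, a difference of -1.20 (SE 0.07, adjusted p = 1.65e-09) against 0.03 in DMSO. ITGB6, which activates latent TGF-β, differed by -1.05 and ITGA11, a collagen receptor, by -0.76. ITGA11 was lower than NTC with both siRNAs, by -1.84 with N3 and -1.08 with N1. MMP2, gelatinase A, was higher by 0.62, with N3 and N1 both below NTC, by -0.24 and -0.86. It was the 1 member of 13 metalloproteinases and TIMPs that was higher. The lower ones were 3, near the 20.9% of all genes, or 1 without N1 array 1, N1 array 2 or N3 array 5.

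The keratins and junction genes of epithelium were mostly lower with N3 than with N1. Of 16 epithelial genes 13 were lower and 0 higher, with a median of -0.28 against -0.04 in DMSO. KRT18, a keratin of simple epithelium, lay at 9.42, 9.49 and 9.58 with N3 and at 10.26, 10.28 and 10.27 with N1, a difference of -0.77 (SE 0.05, adjusted p = 3.64e-09). KRT8, its partner, differed by -0.49, and KRT19 and E-cadherin, CDH1, each by -0.46. CDH1 lay at 10.53, 10.58 and 10.63 with N3 and at 10.99, 11.05 and 11.08 with N1. Its NTC arrays in erlotinib, at 10.72, 10.69 and 10.67, lay nearer N3. For KRT8 the NTC arrays, at 9.99, 9.86 and 9.85, lay nearer the N1 arrays, at 10.01, 10.03 and 9.99. EPCAM, TJP1 and GRHL2 did not pass. The mesenchymal list was divided, with 3 of 8 higher and 3 lower. Beside FN1 it was higher for the repressor SNAI2 at 0.25 and for vimentin, VIM, at 0.18, and it was lower for N-cadherin, CDH2, at -0.48. In DMSO VIM and SNAI2 went the other way, at -0.65 and -0.30.

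**Figure D2:**
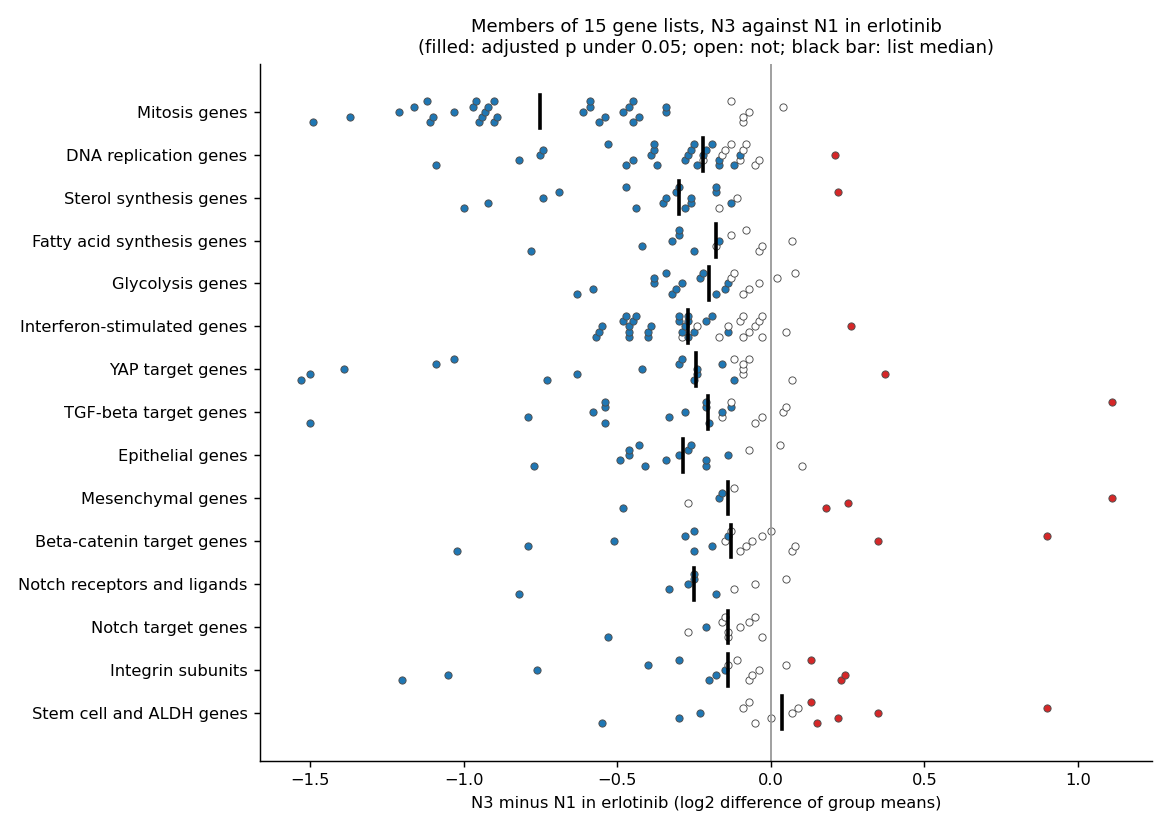
N3 minus N1 log2 difference in erlotinib (horizontal axis) of each tested member of 15 gene lists (rows), filled where the adjusted p was under 0.05 (blue lower, red higher) and open where it was not, with the median of each list as a black bar. The mitosis genes reach furthest left as a group, with a median of -0.75, and red points are few outside the mesenchymal, integrin and stem cell rows.

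Genes of lipid synthesis and glycolysis were also mostly lower with N3. Of 19 sterol synthesis genes 16 were lower, and 1, HSD17B7, was higher at 0.22, with a median of -0.30. The sterol response element, searched as TCACNCCAC on either strand, was in 1 of the 18 promoters of the list (5.56%) and in 1.13% of all. The HSD17B7 call was lost without N1 array 1, N1 array 3, N3 array 5 or N3 array 6. DHCR7, which makes the last step to cholesterol, lay at 8.16, 8.23 and 8.28 with N3, at 9.23, 9.29 and 9.15 with N1 and at 8.52, 8.46 and 8.46 with NTC. Its difference was -1.0 (SE 0.05, adjusted p = 5.28e-10), from -0.26 for N3 and 0.74 for N1 against NTC. SQLE, squalene epoxidase, differed by -0.92, CYP51A1 by -0.74 and MSMO1 by -0.69. For SQLE the difference from NTC was -0.11 (adjusted p = 0.0814) with N3 and 0.81 with N1. Of 13 fatty acid synthesis genes 7 were lower and 0 higher. SCD, the desaturase of stearate, lay at 7.98, 7.97 and 8.11 with N3 and at 8.79, 8.88 and 8.73 with N1, a difference of -0.78 (SE 0.05, adjusted p = 2.58e-08), and the NTC arrays lay at 7.94, 7.83 and 7.97. FASN, fatty acid synthase, differed by -0.42. Of 20 glycolysis genes 13 were lower and 0 higher, among them the glucose carrier SLC2A1 at -0.63 and the regulator PFKFB3 at -0.58. The 25 genes of the ATF4 amino acid response gave 3 higher and 9 lower, with cystathionase, CTH, at 0.50 and PHGDH, which begins serine synthesis, at 0.24.

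Interferon-stimulated genes were lower with N3 than with N1, though not below NTC in the examples that follow. Of 38 tested 24 were lower and 1, the double-stranded RNA kinase EIF2AK2, was higher at 0.26, with a median of -0.27. In DMSO 16 were lower and 1 higher, with a median of -0.20. The difference between the comparisons passed for 4 toward a higher and 8 toward a lower value in erlotinib, with a median of 0.02. These shares of the 38 were near those of all genes. Among all 16314 genes that test passed for 1649 toward a higher and 2774 toward a lower value. The count of lower genes in erlotinib was 15 without N3 array 4. OAS3 and OAS2, which sense double-stranded RNA, differed by -0.57 and -0.56. OAS3 lay at 7.01, 7.16 and 7.07 with N3, at 7.70, 7.72 and 7.54 with N1 and at 6.62, 6.52 and 6.51 with NTC. OAS2 stood above NTC by 1.44 with N3 and by 2.01 with N1. The promoters of such genes hold the interferon response element, the letters GAAA, any 2 bases and GAAA again, which were found on either strand in 2.55% of the 11741 promoters and in 22 of the 31 of this list (71.0%). OAS3 has the largest difference of the list, and its promoter holds this element at 2 places, in capitals, at 143 and 12 bases before the start (chr12:112938224-112938523, plus strand, RefSeq, GRCh38.p14).
OAS3: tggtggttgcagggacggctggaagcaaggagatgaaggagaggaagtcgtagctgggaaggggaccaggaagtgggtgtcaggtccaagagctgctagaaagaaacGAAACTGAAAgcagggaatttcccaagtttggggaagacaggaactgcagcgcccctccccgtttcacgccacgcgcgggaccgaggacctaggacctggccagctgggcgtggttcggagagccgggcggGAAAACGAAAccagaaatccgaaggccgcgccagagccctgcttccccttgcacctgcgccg

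Antigen presentation followed, with 8 of 16 genes of MHC class I and its peptide supply lower and 0 higher, a count of 5 without N1 array 1, N1 array 2, N3 array 4 or N3 array 5. TAP1 and TAP2, the peptide pump, differed by -0.46 and -0.39. ICAM1, the adhesion molecule, lay at 8.80, 8.90 and 8.95 with N3 and at 9.57, 9.62 and 9.45 with N1, a difference of -0.66 (SE 0.05, adjusted p = 1.53e-07), with NTC at 8.75, 8.76 and 8.68.

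Genes that report EGFR and ERK signaling were lower with N3 in part. Of 23 ERK output genes 10 were lower and 1, the inhibitor SPRED1, was higher at 0.22, a call lost without N1 array 1. EPHA2, a receptor kinase, lay at 6.79, 6.79 and 6.95 with N3, at 7.53, 7.59 and 7.5 with N1 and at 7.27, 7.25 and 7.29 with NTC, a difference of -0.70 (SE 0.05, adjusted p = 4.39e-08). EGR1, an immediate early factor, differed by -0.55. Of 10 ERBB receptors and ligands 4 were lower, with TGFA at -0.41 and ERBB3 at -0.29 beside HBEGF, and 1, the ligand BTC, was higher at 0.13, a call lost without N1 array 2, N3 array 4 or N3 array 5. The survival gene BCL2L1 and the pore former BAK1 of the BCL2 family differed by -0.47 and -0.46. In that family 8 of 13 were lower, or 5 without N1 array 1 or N3 array 5, and 1, the death activator BCL2L11, was higher at 0.12, a call that was lost whichever array of the comparison was left out. The other feature of BCL2L11 differed by 0.67, so its 2 features disagree in size. ALDH1A3, the aldehyde dehydrogenase tied to stem-like lung cancer cells, lay at 9.73, 9.77 and 9.79 with N3 and at 10.31, 10.35 and 10.28 with N1, a difference of -0.55 (SE 0.04, adjusted p = 1.28e-08). Of 14 stem cell and ALDH genes 5 were higher and 3 lower, the higher ones 3 without N1 array 1, N1 array 2 or N3 array 5. UGT2B15 and UGT2B17, which glucuronidate androgens and are close copies whose probes can read each other, were higher by 0.50 and 0.57, and both stood below NTC with either siRNA.

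The genes higher with N3 were of another make-up. Of the 22 called by the Methods thresholds 8 were protein coding and 10 were miRNA genes. In DMSO 7 of the 22 were also called higher, against 9.91% of all genes. SPAG17, a protein of the cilium axoneme, lay at 6.33, 6.53 and 6.38 with N3, at 5.00, 5.07 and 5.05 with N1 and at 5.81, 5.61 and 5.82 with NTC. Its difference was 1.37 (SE 0.06, adjusted p = 2.69e-10). TSPAN8, a tetraspanin of epithelial cells, lay at 5.64, 5.70 and 5.61 with N3 and at 4.47, 4.45 and 4.45 with N1, a difference of 1.19 (SE 0.07, adjusted p = 2.57e-09). The NTC arrays lay at 4.5, 4.55 and 4.5. These N1 and NTC levels were below the noise filter, at 4.94 to 4.99 on those arrays, so the size of the TSPAN8 difference is uncertain. VCAN, the matrix proteoglycan versican, differed by 1.04. DOK5, an adaptor of receptor kinases, and PAMR1, a secreted protein, were chosen after their values were seen and differed by 1.03 and 1.01.

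Noncoding genes were called higher more often than lower, and protein coding genes lower more often than higher. Of 13616 protein coding genes 12.9% were higher and 24.2% lower. For 854 lncRNA genes these shares were 17.4% and 3.75%, for 447 miRNA genes 15.2% and 5.37%, for 187 snoRNA genes 25.1% and 4.81%, and for 1056 pseudogenes 21.2% and 3.79%. The families described next hold 25 of the 68 higher miRNA genes and 29 of the 47 higher snoRNA genes. Without them 10.2% of 422 miRNA genes and 11.8% of 152 snoRNA genes were higher, below the 13.8% of all genes, and 5.69% and 5.92% were lower. In DMSO, 2.01% of miRNA genes were higher and 0.895% lower. The 25 genes of the MIR548 family, hairpins born of a transposon family and spread over many chromosomes, were all called higher in erlotinib, with a median of 0.94. The family was singled out after its values were seen. In DMSO 0 of the 25 were called, with a median of -0.22. The difference between the 2 comparisons passed for all 25 toward a higher value in erlotinib, against 10.1% of all genes. The family's median level lay at 10.54, 10.29 and 9.90 on the N3 arrays, at 9.17, 8.93 and 9.73 on the N1 arrays and at 9.84, 9.65 and 9.98 on the NTC arrays in erlotinib. The N3 and N1 arrays did not overlap, and the NTC arrays overlapped both groups. All 25 were called with any 1 array left out and after quantile normalization.

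A feature of the array reads the precursor of a miRNA gene, not the mature strand. MIR548W, the gene with the largest difference, lay at 7.78, 7.86 and 6.98 with N3 and at 5.94, 5.77 and 6.75 with N1, a difference of 1.39 (SE 0.26, adjusted p = 0.000606). MIR548X lay at 9.24, 9.04 and 8.49 with N3 and at 7.53, 7.25 and 7.98 with N1, a difference of 1.34 (SE 0.20, adjusted p = 9.74e-05). RefSeq gave a mature strand for 16 of the 25 genes. The 5p strands of 4 of them share the seed GCAAAAG, and 3 of these 4 strands are the same sequence, so the probes and products of these genes are not independent. The shared strands are shown 5′ to 3′ with the seed, bases 2 to 8, in capitals, beside the strand of MIR548W, whose seed no other matched gene has.
hsa-miR-548x-5p: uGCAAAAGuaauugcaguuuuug
hsa-miR-548aj-5p: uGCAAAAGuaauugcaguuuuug
hsa-miR-548g-5p: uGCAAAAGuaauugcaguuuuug
hsa-miR-548f-5p: uGCAAAAGuaaucacaguuuuu
hsa-miR-548w: aAAAGUAAcugcgguuuuugccu

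MIR421, an X-linked miRNA gene of another family, lay at 6.97, 7.29 and 7.01 with N3 and at 5.71, 5.87 and 5.78 with N1, a difference of 1.30 (SE 0.20, adjusted p = 0.000115), with the NTC arrays at 6.75, 6.16 and 7.03. The snoRNA genes SNORD113 and SNORD114, which stand in tandem in the imprinted region of chromosome 14, were higher in 29 of 35 cases, with a median of 0.51, and 16 were higher in DMSO. Their median level lay at 7.39, 7.42 and 7.12 with N3, at 6.48, 6.72 and 6.80 with N1 and at 6.76, 6.49 and 6.80 with NTC. Here the NTC arrays lay with N1. These copies are near-identical in part, so features can share transcripts.

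**Figure D3:**
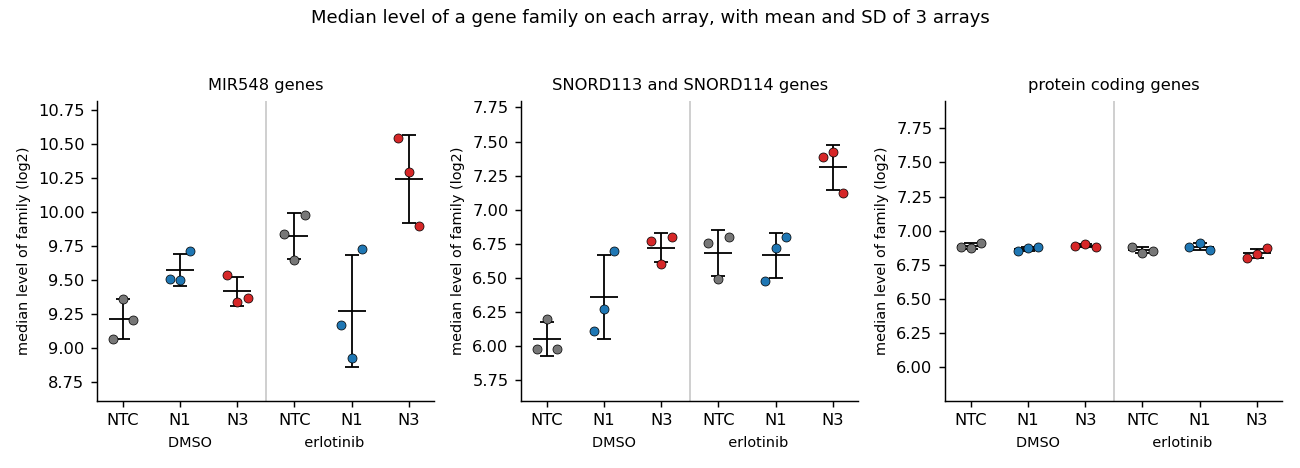
Median level (log2, vertical axes, each spanning the same range) of the MIR548 genes, the SNORD113 and SNORD114 genes and all protein coding genes tested, on each array of the 6 groups. Points are arrays, and bars give the mean and SD of 3. The N3 arrays in erlotinib stand above the N1 arrays in both small RNA families, while the medians of protein coding genes lie between 6.80 and 6.91 on all 18 arrays.

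The same siRNA pair in DMSO shares no array with the comparison in erlotinib, and most genes called in erlotinib were not called there. In DMSO 1617 genes (9.91%) were higher and 1221 (7.48%) lower with N3 by adjusted p, and 21 (0.129%) and 5 (0.0306%) by the Methods thresholds. Of the genes higher in erlotinib 493 (21.9%) were also higher in DMSO, which is 30.5% of the DMSO calls. Of those lower, 508 (14.9%) were lower in DMSO, or 41.6% of the DMSO calls. The sign was opposite for 130 and 319 genes. Across the 16314 genes, which are not independent, Pearson's r between the 2 sets of differences was 0.17 and Spearman's rho 0.07. The test of the difference itself passed for 4423 genes (27.1%), toward a higher value in erlotinib for 1649 (10.1%) and a lower for 2774, among them 1977 of those lower in erlotinib and 1212 of those higher.

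The largest such differences belong to genes of several kinds. In the first kind the N3 against N1 difference passed in DMSO and not in erlotinib. DHRS9, a retinol dehydrogenase, lay at 6.68, 6.80 and 6.63 with N3 and at 4.65, 4.85 and 4.86 with N1 in DMSO, and all 6 arrays in erlotinib lay between 3.35 and 3.52. The levels in erlotinib were below the noise filter, at 4.94 to 5.01 on those arrays, so a difference there could go unseen. The difference between the comparisons was -1.88 (SE 0.12, adjusted p = 6.49e-08). PLAT, the tissue plasminogen activator, and TMEM100 also passed only in DMSO, with -1.75 and -1.51 between the comparisons. AKR1C2, a steroid reductase, was the reverse, with N3 at 4.54, 4.47 and 4.40 and N1 at 5.92, 6.33 and 6.12 in DMSO, and a difference between the comparisons of 1.71 (SE 0.11, adjusted p = 4.84e-08). The N3 levels of AKR1C2 in DMSO were below the noise filter, at 4.85 to 4.9 on those arrays. Probes of AKR1C2 can read other AKR1C genes. In the second kind the sign turned. MGP gave -2.26 (SE 0.09, adjusted p = 1.88e-10), NT5E -1.61, LGR5 1.78, and PIGR, the receptor that carries IgA across epithelium, -1.66, from 1.13 in DMSO to -0.54 in erlotinib. The miRNA genes MIR548W, MIR548X and MIR421, at 1.60, 1.56 and 1.51, were of another kind, called higher in erlotinib and not in DMSO. RASGRP1 gave -0.16 (SE 0.12, adjusted p = 0.326), so its 2 differences were not shown to differ.

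**Figure D4:**
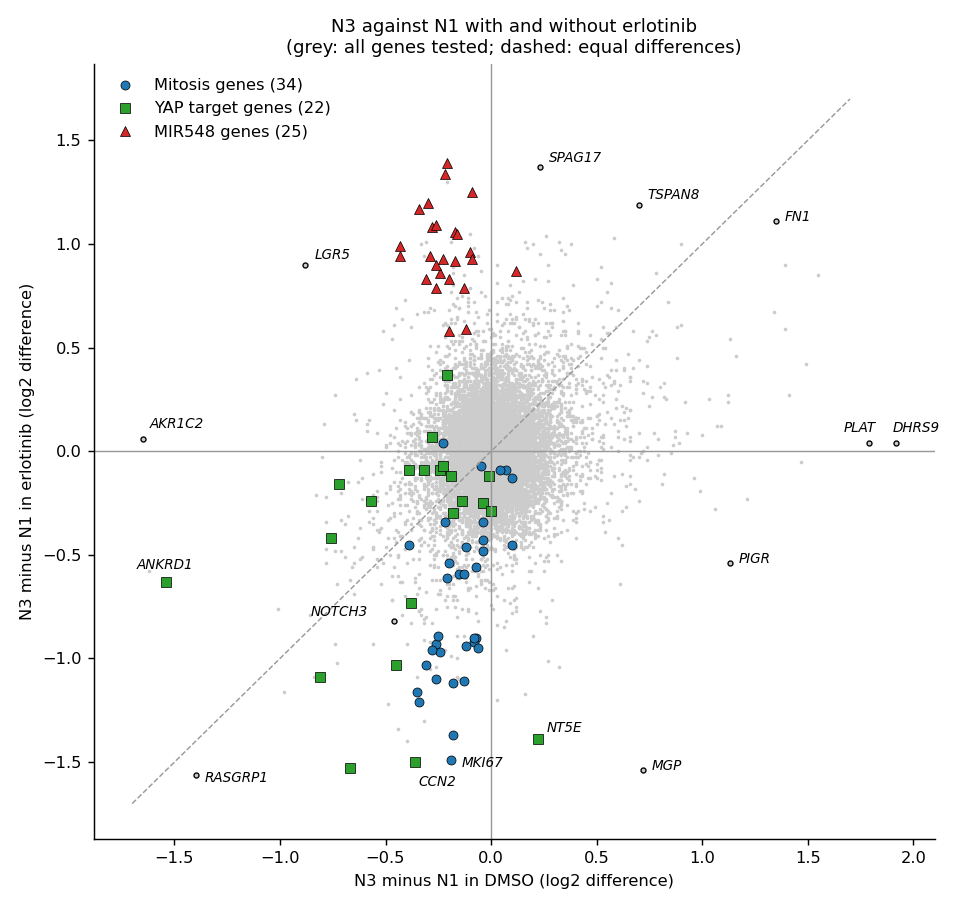
N3 minus N1 log2 difference in erlotinib (vertical axis) against that in DMSO (horizontal axis) for all 16314 genes tested (grey), with 34 mitosis genes, 22 YAP target genes and 25 MIR548 genes marked and further genes named. The MIR548 genes lie above the cloud and the mitosis genes below it, close to 0 on the horizontal axis, while RASGRP1 and FN1 lie near the dashed line of equal differences.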

How the data were processed

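HCC4006 cells with NTC, N1 or N3 siRNA and DMSO or erlotinib were measured on 18 GeneChip Human Transcriptome Array 2.0 arrays, 3 in each of 6 groups. The authors made the values with RMA in Expression Console, per the labels' processing notes, a method that subtracts background, equalizes arrays and combines the probes of a feature. The deposited log2 values were used as given. RMA pulls arrays to one distribution, so a shift shared by most genes is not seen. The version of RMA was not given in the sources used here, nor was the genome build. Of 70523 features, 23781 name 1 gene, 1543 several and 45199 none in the platform annotation, and symbols were updated through RefSeq. Features above the 50th percentile of their array on at least 3 arrays were kept (37493), and the feature of highest mean stood for each gene, leaving 16314 genes, while 6097 genes did not pass. For arrays, their number limits the precision, and no counting depth applies.

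Group means of all 18 arrays were fitted with limma 3.58.1 in R 4.3.3 (lmFit, contrasts.fit, eBayes). Comparisons were N3 against N1 in erlotinib, the same in DMSO, the difference of both, and each siRNA against NTC in erlotinib. On simulated data of the erlotinib comparison over 16314 genes, 50 genes were changed at each fold, with independent noise. An adjusted p under 0.05 recovered 56% of genes changed by a fold of 1.2, 98% at 1.5 and 100% at 2 and 3. Among its 187 calls 10 were false. Far more genes, 34.7%, were called in the data, so recovery and false calls there can differ. The Methods thresholds recovered 62% at 2 and 100% at 3. Motifs were searched on both strands of RefSeq promoters.

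Named were NOTCH1 and NOTCH3, the 15 highest and 15 lowest genes in erlotinib among those called whose arrays do not overlap, up to 4 called members of each list with the largest difference, genes the study names, and the 6 highest and 6 lowest by the difference between erlotinib and DMSO. Members and lists were chosen with earlier results of these data known. Other members of a list, named where few were called or where they did not pass, were picked once their values had been seen. Some items of the lists and the study are not reported here. Alternatives were other noise filters, quantile normalization, all features, a mean-variance trend with robust settings, the compared arrays alone, a replicate block in DMSO, and each array left out.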

Additional observations from a re-analysis of the deposited data

Results flagged for a closer look

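The N3 against N1 difference was tested for a change between erlotinib and DMSO by the interaction of the limma fit, with adjustment over all 16314 genes, of which 27.1% passed. Of 108 genes named above, most of them chosen for a large difference, 84 passed, 64 toward a lower value in erlotinib and 20 toward a higher. This count cannot be set against the share of all genes. The genes named for the largest such change had passed this same test when chosen. Most others were chosen for a large difference in erlotinib, which enters the test. The values below are the difference in erlotinib minus that in DMSO, on the log2 scale.

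Among Notch genes the change was -0.36 for NOTCH3, -0.27 for DLL4, -0.35 for FURIN, -0.33 for APH1A, -0.36 for HES1 and -0.28 for HEYL. For cell cycle genes it was -1.30 for MKI67, -1.19 for TOP2A, -0.86 for HMMR, -0.81 for KIF23 and -0.89 for CDKN3. DTL gave -0.93, CDC6 -0.76, MCM10 -0.87, RRM2 -0.74, H4C3 -1.01, H2BC14 -0.65, CCNE2 -0.60 and CDKN1A -0.31.

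For targets of YAP and beta-catenin the signs were mixed. CCN2 gave -1.14, IGFBP3 -0.86 and NT5E -1.61, while ANKRD1 gave 0.91, FJX1 0.58 and GADD45A 0.30. MMP7 gave -0.29, BAMBI -0.37, GADD45B -0.37 and LGR5 1.78. F3 gave -0.28. Matrix, integrin and epithelial genes gave -0.24 for FN1, -0.45 for PDGFB, -1.23 for ITGB3, -0.75 for ITGB6, -0.77 for ITGA11, -0.88 for ITGA1, 0.26 for COL1A2 and 0.53 for MMP2. KRT18 gave -0.66, KRT8 -0.45, KRT19 -0.62 and CDH1 -0.27. The mesenchymal genes CDH2, SNAI2 and VIM gave 0.23, 0.55 and 0.83.

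For sterol, fatty acid and glucose genes the change was -0.84 for DHCR7, -0.63 for SQLE, -0.35 for CYP51A1, -0.34 for MSMO1, -0.71 for SCD, -0.42 for FASN, -0.51 for SLC2A1 and -0.53 for PFKFB3. Immune genes gave -0.41 for OAS3, 0.40 for EIF2AK2, -0.35 for both TAP1 and TAP2 and -0.77 for ICAM1. Signaling and survival genes gave -0.48 for EPHA2, -0.28 for EGR1, -0.64 for HBEGF, -0.62 for TGFA, -0.47 for ERBB3, -0.40 for BCL2L1, -0.46 for BAK1, 0.17 for BCL2L11 and -0.62 for ALDH1A3.

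Of the genes with the largest differences between the siRNAs, MGP gave -2.26, AASS -0.73, ABI3BP -0.98 and TCIM -1.33. SPAG17 gave 1.14, TSPAN8 0.50, VCAN 0.77, DOK5 0.46 and PAMR1 1.31, and the miRNA genes MIR548W, MIR548X and MIR421 gave 1.6, 1.56 and 1.51. DHRS9, PLAT, PIGR and TMEM100 gave -1.88, -1.75, -1.66 and -1.51, and AKR1C2 gave 1.71.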

How the results depend on the processing

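No named gene recomputed changed direction under any alternative. The balance of the counts did turn when some arrays were left out. By the Methods thresholds in erlotinib, 37 genes were higher and 33 lower without N1 array 3. Without N3 array 6 these counts were 34 and 33. In DMSO by adjusted p, 1374 were higher and 1526 lower without N1 array 1. In erlotinib, 22 genes were higher by the Methods thresholds, and 14 were at the 75th-percentile noise filter. Leaving out 1 array gave 14 (without N3 array 5) to 37 (without N1 array 3) higher and 27 to 33 lower by those thresholds, 34 higher without N3 array 6, and 1624 to 2358 higher and 2329 to 3763 lower by adjusted p. In DMSO it gave 18 to 23 and 4 to 6 by the Methods thresholds and 1164 to 1374 higher and 759 (without N3 array 3) to 1526 lower by adjusted p. The difference between erlotinib and DMSO then had 1185 to 2148 genes higher and 1974 to 3276 lower. Quantile normalization gave 2453 higher and 4190 lower in erlotinib by adjusted p, so that 36.9% of calls were higher in place of 39.8%, and a median over all genes of -0.06. The cause was not tested.

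The N3 and N1 arrays in erlotinib share no replicate number, so no paired analysis was possible there. In DMSO, deviations of same-numbered arrays correlated at -0.126, 0.173 and -0.289, and those of differently numbered arrays at -0.253 to 0.333. Deviations from a mean of 3 arrays are tied to each other, so the values cannot tell whether the arrays were paired. Fitted on those 6 arrays with a replicate block, 1028 genes were higher and 799 lower in DMSO by adjusted p, against 1359 and 1043 on the same arrays without it and 1617 and 1221 over all 18 arrays.

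With 3 arrays a group, a simulation with few changed genes recovered 56% of those changed by a fold of 1.2 in erlotinib by adjusted p. Many more genes were called in the data, so recovery there can differ.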

Other observations

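Features that name no gene or several genes were left out of the comparisons above. Of 20254 such features above the noise filter, 3338 were higher and 1807 lower with N3 than with N1 in erlotinib by adjusted p, and 121 were higher and 17 lower by the Methods thresholds. In DMSO those counts were 563 and 483, and 14 and 7.

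Some gene lists were not described above. Over all genes 20.9% were lower and 13.8% higher in erlotinib, and 7.48% and 9.91% in DMSO. Of 17 p53 target genes tested 8 were lower with N3 in erlotinib, or 5 without N1 array 2 or N3 array 4, and 1 was higher, or 2 without N3 array 4. Of 16 NRF2 target and AKR1C genes 10 were lower and 2 higher in erlotinib, and in DMSO 14 were lower and 0 higher. The higher ones were 1 without N1 array 1, N1 array 3 or N3 array 6 and 0 without N3 array 5. Of 26 lysosome and autophagy genes 15 were lower and 2 higher in erlotinib, against 2 lower and 9 higher in DMSO. The higher ones were 1 without N1 array 1, N1 array 2, N3 array 5 or N3 array 6. Of 26 ribosome biogenesis genes 13 were lower and 1 higher in erlotinib, the latter 0 without N1 array 1, N1 array 2, N3 array 4 or N3 array 5 and 2 without N1 array 3. Of 19 alveolar and airway differentiation genes 6 were lower and 2 higher in erlotinib, against 1 lower and 8 higher in DMSO.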
